A study of Mus musculus with 141 samples.

Results

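The 40 genes described here encode the core machinery of DNA replication, and were chosen by name and matched by symbol to the gene rows of the count table, where all 40 were found among 46078. They were read in single cells from the bone marrow of 3 female C57BL/6 mice, whose age the labels do not give. One population, the basophil/mast cell progenitors (BMCP, 94 cells), was sorted by high integrin beta7 and high CD16/32 among live cells that lacked lineage markers and Sca1 and carried Kit. The other, the granulocyte/monocyte progenitors (GMP, 47 cells), came from the same Kit-bearing cells, was positive for CD34 and high for CD16/32, and lay outside that first gate. The labels name no treatment and no altered allele for either population. Since the labels do not say which mouse a cell came from, each population was 1 sample without replicates, and no test was made. Limits given with levels and with the summed ratio cover counting error only. Those of shares take cells as independent, and those of medians take genes as independent. None of these limits covers differences between mice.

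Before S phase, the origin recognition complex, Cdc6 and Cdt1 load the ring-shaped helicase made of Mcm2 to Mcm7 onto DNA. At origin firing the ring is joined by Cdc45 and the GINS complex, primase and the polymerases copy the strands, and the clamp Pcna, set on DNA by the clamp loader RFC, holds the polymerases in place. Transcription of many of these genes is driven by E2F factors as cells pass from G1 into S phase, and progenitors of the granulocyte lineages in bone marrow are known to divide often.

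Promoter sequences of a few of these genes are shown first, because 39 of the 40 were lower in BMCP, as described further on. The RefSeq table of promoter windows (GRCm38.p6, 250 bases before to 50 after each gene start) held 33 of the 40 genes, and Gins1, Gins2, Gins4, Mcm4, Rfc2, Prim2 and Pole had no entry. An E2F-type motif was taken as any of 4 words of 7 letters on either strand, with overlapping matches counted. The first word was TTCCCGC. The next word searched was TTCGCGC. A further word searched was TTGCCGC. The last of the words was TTGGCGC. Printed here, from 250 bases before to 30 after the start, are the windows of the 5 helicase ring subunits in the table, of Cdc45, which was much lower in BMCP, and of Rpa3, which was little different. Capitals mark E2F-type matches.
Mcm2, chr6:88898751-88899030, minus strand: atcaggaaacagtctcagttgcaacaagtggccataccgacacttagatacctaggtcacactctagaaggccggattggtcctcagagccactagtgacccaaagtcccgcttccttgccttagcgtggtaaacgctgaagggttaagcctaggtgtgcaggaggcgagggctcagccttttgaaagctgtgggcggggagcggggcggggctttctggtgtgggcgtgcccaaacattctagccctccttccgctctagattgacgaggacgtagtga
Mcm3, chr1:20820283-20820562, minus strand: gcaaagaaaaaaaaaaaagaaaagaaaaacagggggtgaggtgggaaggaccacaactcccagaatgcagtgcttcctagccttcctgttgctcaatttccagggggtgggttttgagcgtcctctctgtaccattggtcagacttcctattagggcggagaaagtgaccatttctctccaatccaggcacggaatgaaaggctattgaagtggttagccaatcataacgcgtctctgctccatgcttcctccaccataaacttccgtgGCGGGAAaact
Mcm5, chr8:75109259-75109538, plus strand: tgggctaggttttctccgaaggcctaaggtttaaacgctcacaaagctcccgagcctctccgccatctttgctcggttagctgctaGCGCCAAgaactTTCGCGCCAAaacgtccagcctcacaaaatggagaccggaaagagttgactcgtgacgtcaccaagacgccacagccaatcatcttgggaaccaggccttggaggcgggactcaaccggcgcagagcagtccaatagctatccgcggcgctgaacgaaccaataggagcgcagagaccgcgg
Mcm6, chr1:128359676-128359955, minus strand: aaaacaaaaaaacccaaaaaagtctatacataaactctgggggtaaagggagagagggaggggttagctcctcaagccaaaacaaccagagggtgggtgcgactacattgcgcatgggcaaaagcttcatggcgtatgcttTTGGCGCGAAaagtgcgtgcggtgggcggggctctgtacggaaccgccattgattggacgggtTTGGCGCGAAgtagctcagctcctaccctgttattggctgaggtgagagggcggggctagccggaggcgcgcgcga
Mcm7, chr5:138171854-138172133, minus strand: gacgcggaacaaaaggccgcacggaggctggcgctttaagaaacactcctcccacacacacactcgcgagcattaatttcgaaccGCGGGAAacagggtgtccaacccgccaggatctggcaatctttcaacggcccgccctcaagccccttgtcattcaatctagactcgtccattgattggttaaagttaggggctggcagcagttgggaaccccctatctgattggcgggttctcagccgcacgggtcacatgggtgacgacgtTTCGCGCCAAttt
Cdc45, chr16:18811943-18812222, minus strand: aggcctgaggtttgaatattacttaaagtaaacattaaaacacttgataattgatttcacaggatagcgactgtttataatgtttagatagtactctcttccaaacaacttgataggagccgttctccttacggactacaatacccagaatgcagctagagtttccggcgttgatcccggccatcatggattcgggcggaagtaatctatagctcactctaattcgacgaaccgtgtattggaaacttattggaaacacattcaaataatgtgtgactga
Rpa3, chr6:8259112-8259391, minus strand: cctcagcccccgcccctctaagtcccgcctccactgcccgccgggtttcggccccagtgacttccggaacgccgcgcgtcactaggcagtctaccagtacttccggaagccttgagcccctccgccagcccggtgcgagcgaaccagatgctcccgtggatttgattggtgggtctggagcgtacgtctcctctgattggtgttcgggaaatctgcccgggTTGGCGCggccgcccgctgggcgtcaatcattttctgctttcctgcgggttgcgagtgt
Mcm6 held 5 E2F-type matches in its whole window, at 109, 106, 46 and 43 bases before the start and 24 bases after it. Of these 4 overlap in pairs and stand as TTGGCGCGAA in the printed sequence. Mcm5 and Mcm7 held 3 each and Mcm3 held 3, of which those beginning 39 and 42 bases after the start lie beyond the printed end. Mcm2 and Cdc45 held none in these windows. Over all windows of a gene, 23 of the 33 replication genes (69.7%) had at least 1 E2F-type match, against 10.9% of all 27025 genes in the table and 9.57% of all 32851 windows. The windows of the replication genes had a median GC content of 60%, against 52.7% for all genes. For the 20 mitosis genes used below as a neighbouring phase of the cell cycle, 18 were in the table, 4 of them had a match, and their median GC content was 59.7%. The word CCAAT, on either strand, was found for 22 of 33 replication genes, 16 of 18 mitosis genes and 41.1% of all genes. In Mcm7, Prim1 and Rfc1 a CCAAT shares bases with an E2F-type word, and without such matches 21 of 33 replication genes, 16 of 18 mitosis genes and 40.8% of all genes held it. The 23 with an E2F-type match had a median log2 ratio of BMCP over GMP of -1.93 (range -3.77 to -0.45), and the 10 without had -1.61 (-3.13 to -0.49). Split by CCAAT, the medians lay further apart. The 22 with it had -2.21 (-3.77 to -0.45), and the 11 without had -1.55 (-3.39 to -0.98). The part of either word in these ratios was not tested.

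**Figure D1:**
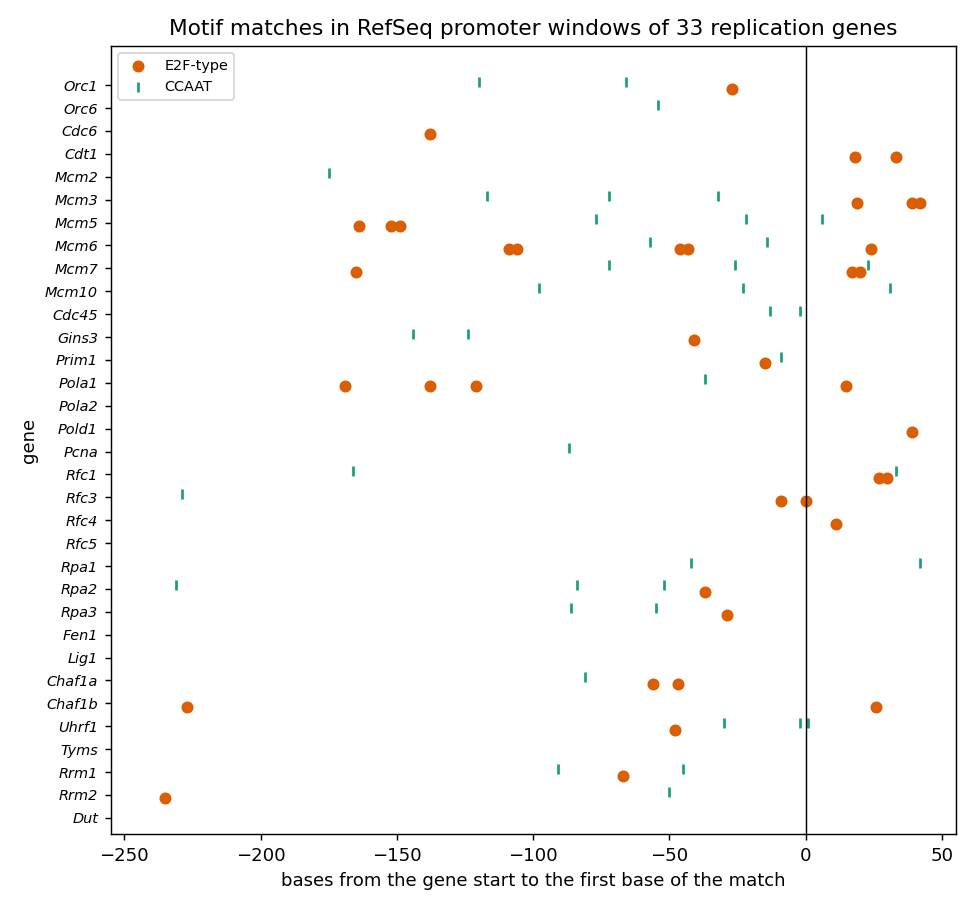
Positions of E2F-type words (orange dots) and CCAAT (green bars) in the first RefSeq promoter window of each of 33 replication genes (y axis), as bases from the gene start to the first base of the match (x axis, start at 0). Of 39 E2F-type matches, 27 begin within 100 bases of the start.

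After filtering, 89 BMCP and 41 GMP remained. They held 84242320 and 55520835 nuclear-encoded counts, with 96129 to 2416630 per BMCP and 130191 to 3688848 per GMP. Levels are given as CPM, read counts scaled to a library total of 1000000 nuclear-encoded counts and summed over the cells of a population. Of the marker genes of the populations, Gzmb and Elane, whose products were not part of the sort, went with the labels. Gzmb was detected in 86 of 86 BMCP and Elane in 40 of 40 GMP, each at 2 or more reads after every cell was thinned to 200000 reads. In the other population Gzmb was detected in 2 of 40 GMP and Elane in 1 of 86 BMCP, and neither reached 10 reads in any cell. Mpo, the myeloperoxidase gene of the granulocyte lineage, was detected in 24 of 86 BMCP, in 3 of them at 10 or more reads, with up to 81 reads. GMP were mixed: Gata2, a factor of the mast cell and basophil lineages, reached 100 CPM in 18 of the 41. Markers of other cells were also read. The 6 erythroid markers summed to 328 CPM in BMCP (0 to 2923 per cell) and 21.1 CPM in GMP (0 to 297), led by Car1, at 228 CPM and detected in 33 of 86 BMCP, while the globins Hba-a1 and Hbb-bt were under 1 CPM in both. The B cell list summed to 60.6 CPM (0 to 1079) and 105 CPM (0 to 584), nearly all of it Cd79b, with Pax5 at 5 reads in BMCP and 0 in GMP. The T and NK cell list summed to 1185 CPM (3.33 to 4418) and 1131 CPM (23.0 to 4427), nearly all of it Nkg7, with 0 reads of Cd3g and Cd8a in both. The late neutrophil list summed to 17.3 CPM (0 to 481) and 14.1 CPM (0 to 205). The part of such cells in the results was not tested.

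Replication transcripts were scarce in BMCP and abundant in GMP. Summed over the 40 genes they made up 0.272% of counts in BMCP and 0.793% in GMP, which is 2719 CPM against 7928 CPM, or 2.92-fold lower in BMCP (log2 -1.54, Poisson limits -1.55 to -1.53). All 40 reached 1 CPM in both populations, so none entered through 1 population alone. By the log2 ratio, with 1 added to each CPM, 39 of 40 were lower in BMCP, 34 of them at least 2-fold, and none was at least 2-fold higher. Of all 14554 genes with at least 1 CPM in either population, 21% were at least 2-fold lower and 25.8% at least 2-fold higher in BMCP. The median log2 ratio was -1.91 over the 40 genes (order-statistic limits -2.48 to -1.65) and 0.038 over all genes tested.

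Spike-in RNA took a larger share of BMCP libraries. The median share of spike-in reads was 11.3% in BMCP libraries and 5.92% in GMP libraries, and the median BMCP had 5440 genes with a read, the median GMP 7001. Scaled to spike-in reads, every log2 ratio shifts by -0.87 and the median of all genes becomes -0.83. On that scale the 40 genes together gave 20.3 counts per 1000 spike-in counts in BMCP and 108 in GMP, 5.33-fold lower, all 40 were lower, and 39 were at least 2-fold lower. The mitochondrial share of gene counts also differed, with a median of 4.48% in BMCP (1.76 to 7.65) and 6.78% in GMP (4.11 to 9.30). Over cells, the number of replication genes detected had a Spearman rho with that share of -0.077 in 86 BMCP and -0.19 in 40 GMP. With at most 5% allowed and at least 200000 counts, 54 BMCP and 5 GMP were left, and the number of the 40 genes at least 2-fold lower in BMCP was 36.

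**Figure D2:**
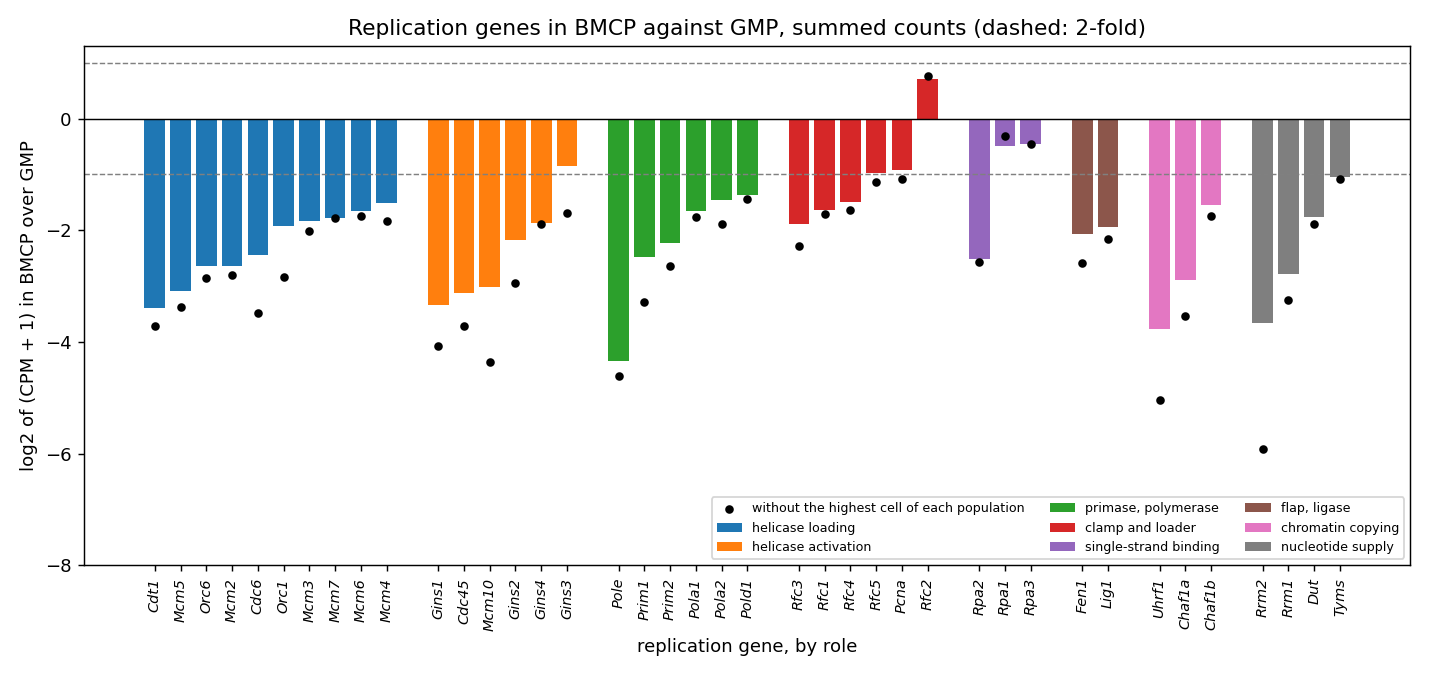
Ratio of BMCP to GMP, as log2 of the CPM each raised by 1 (y axis), for each of the 40 replication genes (x axis), coloured by role. Black dots give the same ratio after the cell with most reads was left out of each population, and dashed lines mark 2-fold. Rfc2 alone lies above 0, at 0.71, and Pole is lowest, at -4.34.

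The origin and helicase loading genes were all lower in BMCP, 10 of 10 at least 2-fold, and their median log2 ratio was -2.19. Mcm6, a subunit of the helicase ring (chr1:128331590-128359664, minus strand, GRCm38), was at 244 CPM in BMCP (240 to 247) against 765 CPM in GMP (758 to 773), log2 -1.65. Across single BMCP it ran from 0 over a median of 5.18 to 1962 CPM, and across GMP from 4.62 over 685 to 2451 CPM. The cells overlap, but the upper quartile of BMCP, 274 CPM, lies close to the lower quartile of GMP, 270 CPM. Mcm5, another ring subunit (chr8:75109569-75128439, plus strand), was at 59.6 and 517 CPM (log2 -3.10). Most BMCP held next to none of it: the median cell was at 0, the upper quartile at 1.33 and the highest at 1418 CPM, against a GMP median of 327 CPM and a highest of 2189 CPM. Mcm5 was detected in 11 of 86 BMCP (12.8%, Clopper-Pearson limits 6.56 to 21.7) but 38 of 40 GMP (95%, 83.1 to 99.4).

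The other ring subunits were at least 2-fold lower in BMCP too. Mcm2 was at 76.8 and 485 CPM, Mcm3 at 110.3 and 396 CPM, Mcm4 at 91.3 and 261 CPM and Mcm7 at 121 and 415 CPM, with log2 ratios of -2.64, -1.83, -1.5 and -1.78. Since the ring holds 1 copy of each subunit, their levels were also compared per kilobase of exon (counts per kilobase, scaled as CPM). Exons were merged over all annotated transcripts, which gave 6956 bases for Mcm2 and 3589 (Mcm4) to 4666 (Mcm6) for the others. The order of the subunits depends on these lengths. In GMP these levels per kilobase ran from 69.7 (Mcm2) and 72.7 (Mcm4) over 93.9 (Mcm7), 105.5 (Mcm3) and 130 (Mcm5) to 164 (Mcm6), a span of less than 3-fold. In BMCP they ran from 11 (Mcm2) and 14.9 (Mcm5) over 25.5 (Mcm4), 27.2 (Mcm7) and 29.4 (Mcm3) to 52.2 (Mcm6). Mcm6 led in both, while Mcm5 was the second highest in GMP and the second lowest in BMCP. With thinned reads, all 6 subunits were detected together in 3 of 86 BMCP and 28 of 40 GMP, and none of the 6 in 11 BMCP and 1 GMP. The median number was 2 in BMCP and 6 in GMP.

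Among the loading factors, Cdt1, which brings the ring to origins (chr8:122568015-122573554, plus strand), was at 21.4 CPM in BMCP against 234 CPM in GMP, the lowest ratio of this role (log2 -3.39). Its cells ran from 0 over a median of 0 to 558 CPM in BMCP and from 0 over 193 to 873 CPM in GMP. Orc6, a subunit of the origin recognition complex, was at 17.1 and 112 CPM (log2 -2.64). Orc1, its largest subunit, and Cdc6, the loading ATPase, were low in both, at 4.84 and 21.3 CPM and at 9.50 and 56.3 CPM. Single cells carried these BMCP levels: Orc1 was at 1.52 CPM without BMCP 78 and Cdc6 at 3.30 CPM without BMCP 62. Both were detected in few GMP too, 11 and 14 of 40.

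Helicase activation genes were lower in BMCP, 5 of 6 at least 2-fold, with a median of -2.60, and rested on few BMCP. Cdc45, which joins the ring at firing (chr16:18780447-18811987, minus strand), was at 12.1 and 114 CPM (log2 -3.13), or 5.80 CPM in BMCP without BMCP 93. It was detected in 6 of 86 BMCP but 21 of 40 GMP. Mcm10, needed for firing, was at 7.70 and 69.4 CPM (log2 -3.02), or 1.95 CPM without BMCP 70, and detected in 2 and 19 cells. Of the GINS subunits, Gins1 was at 7.44 and 84.3 CPM, Gins2 at 10.8 and 52.6 CPM and Gins3 at 18.9 and 34.6 CPM. Gins2 is uncertain, since 67.3% of its exon bases lie opposite Gse1, whose levels were 44.1 and 16.5 CPM. For Gins1, Gins2 and Gins3 BMCP 62 gave more than 50% of the BMCP reads, and without it they were at 3.60, 5.13 and 7.82 CPM. Gins3, at log2 -0.84 with that cell, was the member of this role within 2-fold. Gins4 was at 32.5 and 121 CPM (log2 -1.87).

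Primase and polymerase genes were lower in BMCP, 6 of 6 at least 2-fold, with a median of -1.94. Pole, the catalytic subunit of the leading strand polymerase (chr5:110286306-110337474, plus strand), was at 3.21 CPM in BMCP (2.83 to 3.61) against 83.9 CPM in GMP (81.5 to 86.3), the lowest ratio of the 40 genes (log2 -4.34). It was detected in 5 of 86 BMCP but 20 of 40 GMP. Without BMCP 48, which held 46.7% of its BMCP reads, Pole was at 1.72 CPM. Pold1, the catalytic subunit of polymerase delta, differed least of this role, at 87.9 and 228 CPM (log2 -1.36). The primase subunits Prim1 and Prim2 were at 26.1 and 150.2 CPM and at 15.9 and 78.4 CPM, and those of polymerase alpha, Pola1 and Pola2, at 40.5 and 129 CPM and at 31.1 and 86.8 CPM. Without the BMCP with most reads, Prim1 was at 12.3 CPM (BMCP 49) and Pola2 at 19.7 CPM (BMCP 55).

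The clamp and its loader differed less, with 3 of 6 genes at least 2-fold lower, a median of -1.24 and the 1 gene that was higher in BMCP. Pcna, the sliding clamp, was at 89.8 and 172 CPM (log2 -0.93). Its single cells ran from 0 over a median of 45.9 to 1009 CPM in BMCP and from 0.68 over 155 to 680 CPM in GMP, so the ranges overlap throughout. It was detected in 55 of 86 BMCP but 38 of 40 GMP. A processed copy, Pcna-ps2, had 65.3 and 173 CPM, so how reads were shared between the clamp gene and its copy is uncertain. The loader subunits Rfc1, Rfc3, Rfc4 and Rfc5 were at 52.4 and 166 CPM, 25.9 and 99.1 CPM, 44.9 and 129 CPM, and 64.5 and 128 CPM, with log2 ratios of -1.64, -1.90, -1.5 and -0.98. Rfc3 was at 16.4 CPM in BMCP without BMCP 3.

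Rfc2, the remaining loader subunit (chr5:134581366-134601805, plus strand), was at 776 CPM in BMCP (770.2 to 782) against 475 CPM in GMP (469 to 481), log2 0.71. Single BMCP ran from 0.88 over a median of 728 to 3383 CPM, and single GMP from 0 over 403 to 1229 CPM. Rfc2 was detected in 81 of 86 BMCP, and in GMP in 36 of 40. It held 28.5% of all BMCP counts of the 40 genes and 5.99% of those in GMP, and without it the sums were 1942 and 7453 CPM. On the spike-in scale its log2 ratio was -0.16, so the direction of Rfc2 turns with the scaling. The gene shares 952 exon bases, 15.1% of its own, with Lat2 on the opposite strand (chr5:134600022-134615025), an adaptor gene of mast cells that was at 717 CPM in BMCP against 34.9 CPM in GMP. Strand is not marked by the protocol, and the gene of origin of reads in the shared bases cannot be told. Whether such reads were counted for Rfc2, for Lat2 or left out as ambiguous is not given here. Across cells the CPM of the 2 genes had a Spearman rho of 0.097 in 89 BMCP and 0.18 in 41 GMP, with library and depth shared by both values. The part of Lat2 in the Rfc2 level was not tested.

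**Figure D3:**
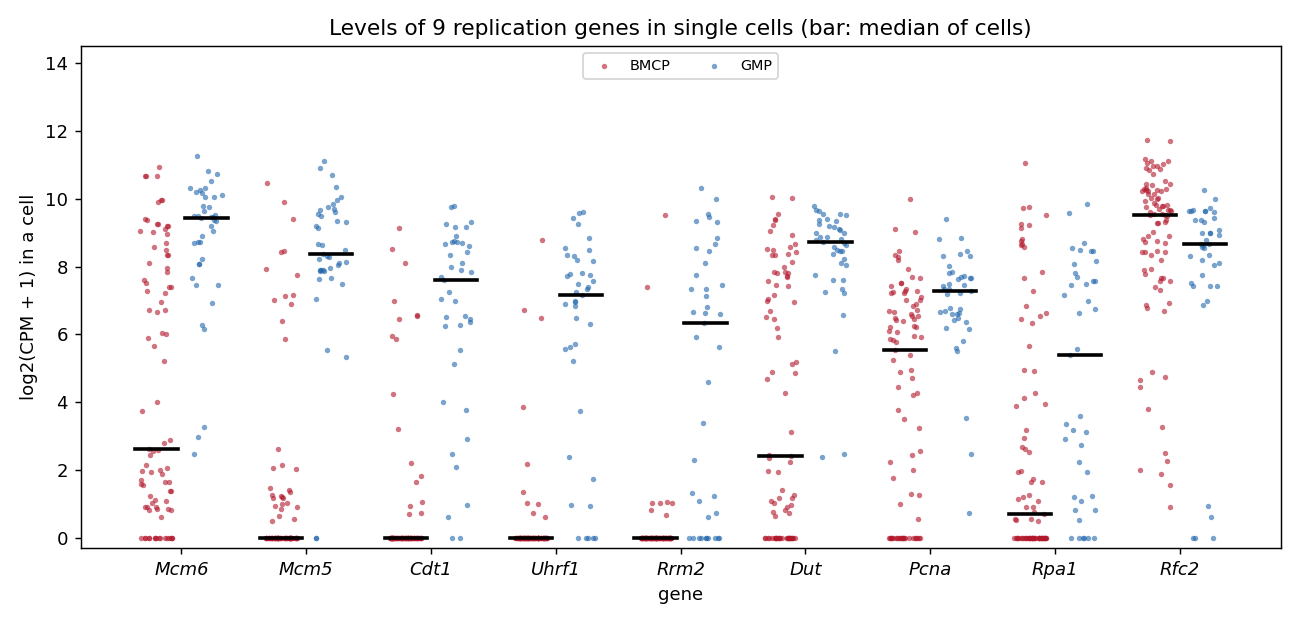
Log2 of CPM plus 1 (y axis) of 9 replication genes (x axis) in each kept cell, 89 BMCP as red dots and 41 GMP as blue dots, with the median of cells as a black bar. The BMCP median is at 0 for Mcm5, Cdt1, Uhrf1 and Rrm2, while Rfc2 has medians of 728 CPM in BMCP against 403 CPM in GMP.

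Replication protein A, which coats single-stranded DNA in replication and in repair, split by subunit. Rpa2 was at 55.5 and 321 CPM (log2 -2.51), whereas Rpa1 was at 98.6 and 139 CPM (log2 -0.49) and Rpa3 at 45.1 and 62.1 CPM (log2 -0.45). Rpa3 was detected in 41 of 86 BMCP but 34 of 40 GMP. The 2 genes that join lagging strand pieces, the flap nuclease Fen1 and the ligase Lig1, were at 2.16 and 12.3 CPM (log2 -2.08) and at 55.4 and 216 CPM (log2 -1.95). Fen1 is uncertain, since 78.8% of its exon bases lie opposite another annotated gene, Gm10143, and Lig1 was at 36.7 CPM without BMCP 53.

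Of the genes that copy chromatin behind the fork, 3 of 3 were at least 2-fold lower in BMCP, with a median of -2.88. Uhrf1, which reads hemimethylated DNA for the maintenance of methylation (chr17:56303321-56323486, plus strand), was at 11 CPM in BMCP against 163 CPM in GMP (log2 -3.77). It was detected in 3 of 86 BMCP (3.49%, 0.73 to 9.86) but 30 of 40 GMP (75%, 58.8 to 87.3), and without BMCP 62 was at 3.65 CPM. The subunits of chromatin assembly factor 1, Chaf1a and Chaf1b, were at 11.7 and 92.7 CPM and at 49.1 and 146 CPM. Chaf1a was at 5.80 CPM without BMCP 87, and 52.5% of its exon bases lie opposite Ubxn6. Shares of 10% or more on an opposite strand were also found for Orc1 (10.8%), Rfc4 (12.7%) and Rfc5 (10.7%).

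In nucleotide supply, 4 of 4 genes were lower in BMCP by 2-fold or more, with a median of -2.27. Rrm2, the ribonucleotide reductase subunit made in S phase (chr12:24708241-24714146, plus strand), was detected in 2 of 86 BMCP but 25 of 40 GMP, and BMCP 62 held 89.6% of its BMCP reads. Single GMP ran from 0 over a median of 79.3 to 1282 CPM. Rrm1, the large subunit of the enzyme, was at 35.4 and 249 CPM (log2 -2.78), or 23.0 CPM without BMCP 83. Dut, which removes dUTP, and Tyms, which makes thymidylate, were at 136 and 465 CPM (log2 -1.76) and at 102 and 211 CPM (log2 -1.05). Dut ran from 0 over 4.33 to 1065 CPM in BMCP and from 4.27 over 419 to 877 CPM in GMP.

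Of the 40 genes, 39 were detected in a smaller share of BMCP than of GMP, Rfc2 being the other one. For 21 the upper quartile of BMCP lay below the lower quartile of GMP, and 31 had a BMCP median of 0, against 3 in GMP. The same counts over all genes are not given here. The median GMP had more genes with a read, 7001 against 5440 in the median BMCP. For all 40 the highest BMCP was above the median GMP, so no gene parted the cells of the populations fully. For 17 genes the BMCP level fell more than 1.5 times when the cell with most reads was left out, and for 0 genes in GMP. BMCP 62 was that cell for 10 genes. In GMP it was GMP 30 for 19 genes, the summed log2 ratio being -1.47 without it.

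Counted per cell at equal depth, a median of 7 replication genes was detected in a BMCP (range 2 to 34, n = 86) and 31 in a GMP (range 3 to 37, n = 40). At least 20 genes were detected in 3 BMCP (3.49%, 0.73 to 9.86) and in 34 GMP (85%, 70.2 to 94.3). In the range of 15 to 24 genes, close to this limit, lay 6 BMCP and 7 GMP. Before thinning the medians were 9 and 33. With 10 reads as the limit of detection they were 6 and 26. The number of all genes detected per cell at equal depth is not given here.

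**Figure D4:**
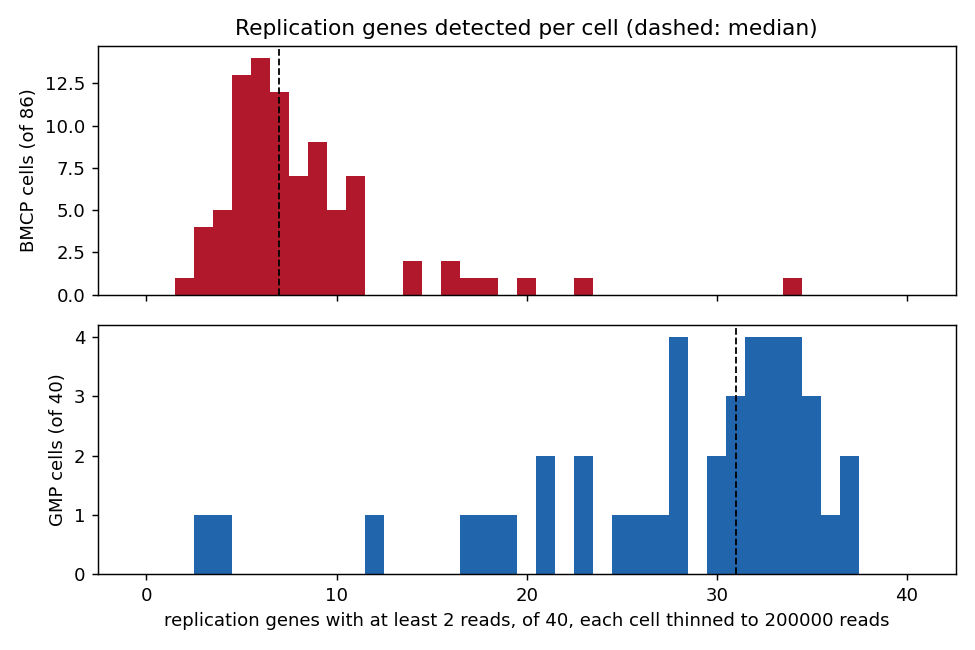
Number of cells (y axis, BMCP above with n = 86 and GMP below with n = 40) by the number of replication genes with at least 2 reads after thinning to 200000 reads (x axis). Dashed lines are the medians, 7 and 31, and 1 BMCP with 34 genes lies within the main body of GMP.

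The 3 BMCP with at least 20 genes were BMCP 62 with 34, BMCP 78 with 23 and BMCP 66 with 20. BMCP 62 held Mcm4 at 1381 CPM, Rrm2 at 735 CPM, Dut at 664 CPM and Uhrf1 at 436 CPM, and was the 1 BMCP whose sum without Rfc2 reached the median GMP. It still carried the BMCP marker genes Gzmb, at 8083 CPM, and Cpa3, at 12180 CPM, with Mpo at 4.21 CPM. All 3 were numbered 48 to 94. The columns of the table fall into blocks of cell numbers that the labels do not describe. In numbers 1 to 47 the count was 0 of 43, with an upper limit of 8.22%, and in numbers 48 to 94 it was 3 of 43 (6.98%, 1.46 to 19.1), while the median was 7 genes in each. Against all GMP, the median log2 ratio of the 40 genes was -2.55 for numbers 1 to 47 and -1.76 for numbers 48 to 94. In each block 39 genes, all but Rfc2, stood below GMP, and 29 were higher in numbers 48 to 94 than in 1 to 47. All GMP lie in 1 block, and an effect of the block cannot be told apart from one of the population.

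GMP were uneven in the other direction. GMP 44 had 3 replication genes detected, GMP 24 had 4 and GMP 20 had 12, against 17 or more in each other thinned GMP. GMP 24 and GMP 20 held Gata2 at 1789 and 1068 CPM and Ms4a2, which encodes a chain of the high-affinity IgE receptor, at 1554 and 2581 CPM, with Mpo at 509 and 1038 CPM. GMP 44 was unlike these, with Mpo at 33812 CPM and Gata2 at 9.23 CPM. A high level of Gata2 did not mark low replication genes in general: the 17 thinned GMP with at least 100 CPM of Gata2 had a median of 30 genes (4 to 37) and the 23 others a median of 31 (3 to 35). With the Gata2-high cells left out of GMP, 38 of the 40 genes were lower in BMCP, 32 of them at least 2-fold, Rpa1 then being at 0.31 on the log2 scale, against -0.49 with all GMP.

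Within GMP the replication genes went together more than within BMCP. The median Spearman rho over pairs of the 40 genes was 0.22 in 41 GMP and 0.077 in 89 BMCP, and over pairs of the 6 ring subunits 0.32 and 0.094. These values come from cells that share library, depth and many zeros, and are a description. The number of replication genes detected had a rho of -0.087 with total counts in GMP and 0.12 in BMCP, and of -0.47 and -0.43 with the share of spike-in reads, so that cells with more RNA per spike-in tended to show more of these genes in both populations. The part of RNA content in the difference between populations was not tested.

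Mitosis genes, the most alike list from a later phase, differed between populations less evenly. Of 20 genes, 13 were at least 2-fold lower and 3 at least 2-fold higher in BMCP. The median was -1.32 in log2 (order-statistic limits -1.83 to 0.15). The 3 higher were Ube2c, Cenpf and Kif23, named after their values were seen. BMCP 29 held 62.3% and 56.4% of the BMCP reads of Ube2c and Cenpf. Kif23, at 96.53 and 29.03 CPM (log2 1.70), rested on more BMCP. BMCP 3 held 15.1% of its BMCP reads, and 32 of 86 BMCP reached 2 thinned reads, against 4 of 40 GMP. It stayed higher on the spike-in scale, at 0.83, and in BMCP 1 to 47 and 48 to 94, at 147 and 66.1 CPM. GMP 6 held 63.6% of the GMP reads of Kif23. Top2a, a topoisomerase, was at 73.6 and 248 CPM and Cdk1, the mitotic kinase, at 22.5 and 157 CPM, or 8.11 CPM without BMCP 44. BMCP 29 and BMCP 44, each with 19 of the 20 genes detected, held 65.7% of the BMCP reads of the 20 genes together. They held 89% of those of Cdk1 and 45.5% of those of Top2a, of which BMCP 62 held 27.7%. In those 2 cells 14 and 16 replication genes were detected, above the BMCP median of 7 and under the GMP median. Without BMCP 29, 44 and 62, chosen after their values were seen, the mitosis median was -3.72 and the replication median -2.0. Against all GMP the mitosis median was -0.16 for BMCP 1 to 47 and -4.12 for BMCP 48 to 94. At least 10 mitosis genes were detected in 2 BMCP, both with fewer than 20 replication genes, and in 8 GMP, all 8 with at least 20. Another 26 GMP had at least 20 replication genes with fewer than 10 mitosis genes, as had the 3 BMCP named above. Over GMP the 2 numbers had a Spearman rho of 0.61 (n = 40) and over BMCP 0.30 (n = 86).

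**Figure D5:**
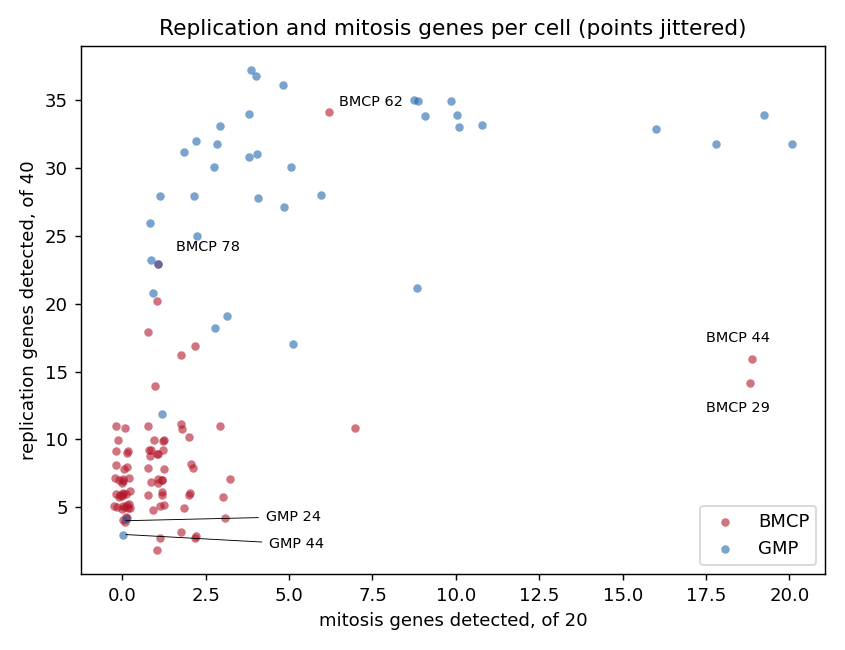
Replication genes detected (y axis, of 40) against mitosis genes detected (x axis, of 20) in each thinned cell, 86 BMCP in red, 40 GMP in blue, with points moved slightly at random to part them. Cells with at least 10 mitosis genes are 8 GMP with at least 20 replication genes and BMCP 29 and 44 with 14 and 16.

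Replication genes outside the 40 were for the most part lower as well, with 29 of 49 at least 2-fold lower and 2 at least 2-fold higher in BMCP and a log2 median of -1.31. Of 19 further origin and fork genes 12 were at least 2-fold lower. Tipin, a fork protection factor, was at 68.1 and 350.2 CPM, and Gmnn, which encodes geminin, the inhibitor of Cdt1, at 19.9 and 172 CPM, or 12.5 CPM without BMCP 62. Mcmbp and Topbp1, at 95.6 and 132 CPM and at 83.1 and 128 CPM, were within 2-fold. The remaining origin recognition subunits did not go with Orc1 and Orc6 throughout. Orc4 and Orc5, chosen after their values were seen, had log2 ratios of 0.81 and 0.86, or -0.06 and -0.01 scaled to spike-in reads, and -0.14 and -0.01 for BMCP 1 to 47. Of 14 further polymerase and processing genes 7 were at least 2-fold lower, among them the accessory subunits Pole3 at 62.3 and 214 CPM and Pold2 at 37.2 and 174 CPM. Top1, a topoisomerase that also serves transcription, was higher in BMCP, at 393 and 140.0 CPM (log2 1.48).

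Of 8 further nucleotide supply genes 6 were 2-fold or more lower in BMCP. Nme1 and Dtymk, kinases of nucleotides, were at 99.9 and 264 CPM and at 94.8 and 238 CPM. Samhd1, which breaks down deoxynucleotides, was the 1 gene of this list at least 2-fold higher, at 156 and 36.1 CPM (log2 2.08). Of 8 further chromatin copying genes 4 were at least 2-fold lower, with Dnmt1, the maintenance methyltransferase, at 126 and 358 CPM and the histone chaperone Nasp at 65.4 and 285 CPM. Tonsl, a reader of new histones, was at 374 and 245 CPM (log2 0.61), or -0.26 scaled to spike-in reads.

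The factors that set entry into S phase did not all stand on the same side. Of 20 genes, 11 were at least 2-fold lower and 3 at least 2-fold higher in BMCP, with a median of -1.67. Cdk2, the S phase kinase, was at 139 and 209 CPM (log2 -0.58) and E2f8, a repressor of the E2F family, at 124 and 110.0 CPM (log2 0.17). Rbl2, which encodes the pocket protein p130 that binds E2F in resting cells, was at 187 CPM in BMCP (detected in 48 of 86) against 39 CPM in GMP (12 of 40), log2 2.23. The other genes at least 2-fold higher, named after their values were seen, were Cdkn1b, which encodes the cyclin-dependent kinase inhibitor p27, and E2f5. Cdkn1b was at 48.5 CPM in BMCP (36 of 86 cells) against 4.86 CPM in GMP (7 of 40), log2 3.08, and stayed higher on the spike-in scale at 2.21. E2f5 was at 15 CPM in BMCP and had no read in GMP. Also lower in BMCP, and chosen after their values were seen, were E2f1, cyclin E1 (Ccne1) and Skp2, which targets p27 for degradation. E2f1 was at 8.95 and 53.9 CPM (5.55 CPM without BMCP 24), detected in 6 of 86 BMCP and 18 of 40 GMP. Ccne1 was at 3 reads or 0.036 CPM in BMCP against 24.4 CPM in GMP, detected in 0 BMCP and 7 GMP. Skp2 was at 1.01 CPM (0.10 CPM without BMCP 71) and 19.6 CPM, detected in 1 BMCP and 10 GMP. Skp2 turned to higher in BMCP, log2 1.27, when only cells with at most 5% mitochondrial reads and at least 200000 counts were used, which leaves 5 GMP.

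By likeness to the summed CPM of the 40 genes across cells, the first genes in GMP included Cdc42se1 (rho 0.63, n = 41), Tuba1b (0.62), Ncaph (0.62) and Ubr7 (0.60), of 7487 genes ranked. Tuba1b encodes an alpha tubulin, and Ncaph is a condensin subunit. In BMCP the highest rho among 4888 genes was 0.38 (Snd1, n = 89), too weak in sparse counts to be read.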

How the data were processed

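Single cells were sorted into plates, and their polyA RNA was reverse transcribed, amplified with spike-in RNA and sequenced as single-end reads, per the labels' protocols. The deposited values are raw read counts per gene and cell, made by the authors with GSNAP and HTSeq 0.5.3p3 on mm10, per the submitters' processing notes. The annotation release was not given in the sources used here. No strand and no molecular identifiers are marked, so reads are not independent molecules. Of the 46078 gene rows, 45143 were matched to a symbol from GENCODE vM21 (GRCm38). Rows that name no gene stayed out of every total; in kept cells reads without a feature made up 15.3%, ambiguous reads 4.57% and unaligned reads 29.4%.

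Kept cells had at least 50000 nuclear-encoded counts, at least 1000 genes, at most 10% mitochondrial and at most 50% spike-in reads, which left out 11 of 141. Each population's reads were summed, and ratios are log2 of CPM plus a pseudocount of 1. Limits at 95% are exact Poisson for counts and Clopper-Pearson for shares. The floor of 3 counts is 0.0356 CPM in BMCP and 0.0540 CPM in GMP. Genes per cell were counted at 2 or more reads after thinning to 200000 reads without replacement, which left out 3 more BMCP and 1 more GMP. Doublets were not called, since cells were sorted singly, and no 2 cells had identical counts. Steps were tested on simulated data. The tools were numpy 2.4.6, pandas 2.3.3, scipy 1.17.1 and, for plots, matplotlib 3.10.9, under Python 3.11.15.

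Genes, lists and markers were chosen with earlier results of these data known. All 40 genes are named; from other lists, the few with the highest CPM in either population, and others are said to be chosen by their values. Genes alike across cells were the top 10 by Spearman rho with the summed CPM, among genes detected in at least 25% of cells. Alternatives changed cell weights, scaling, pseudocount, filters, depth, the detection limit and the cells used.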

Additional observations from a re-analysis of the deposited data

How the results depend on the processing

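The direction of the summed replication genes, of their median and of the mitosis median was lower in BMCP under each alternative run, and 32 to 39 of the 40 genes were at least 2-fold lower. Values under alternatives, mostly beyond counting or order-statistic limits, were these, as log2 ratios. The summed genes were at -1.64 with each gene's highest cell left out, -1.85 for cells with at least 200000 counts and at most 5% mitochondrial reads (54 BMCP and 5 GMP), -1.66 and -1.48 for BMCP 1 to 47 and 48 to 94, -1.32 against GMP with Gata2 under 100 CPM, -1.58 scaled to the median of all genes, -2.41 scaled to spike-in reads and -1.64 without BMCP 29, 44 and 62. Their median was -2.55 for BMCP 1 to 47 and -2.78 scaled to spike-in reads. The mitosis median was -3.58 under the stricter cell filter, -0.16 and -4.12 for BMCP 1 to 47 and 48 to 94, -2.19 scaled to spike-in reads and -3.72 without those 3 cells. Leaving out 1 cell at a time, the summed value ran from -1.65 (BMCP 62) to -1.47 (GMP 30), the median of the 40 genes from -2.04 to -1.88, the number at least 2-fold lower from 33 to 35, and the mitosis median from -2.09 (BMCP 44) to -0.94 (GMP 6).

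Median genes detected per BMCP rose to 9 without thinning and to 9 at a limit of 1 read. At 10 reads the GMP median was 26, and 70% of GMP had at least 20 genes. In BMCP 1 to 47, 0% did. Of 95 listed genes at least 2-fold apart, 7 turned direction under an alternative. These were, under the stricter cell filter, Mcm8 at 1.84, Skp2 at 1.27, Bub1 at 0.34 and Nusap1 at 0.43, and, for BMCP 1 to 47, Mki67 at 0.18 and Nusap1 at 0.15. Ube2c and Cenpf, higher in BMCP in all cells, were at -4.07 and -3.60 for BMCP 48 to 94 and at -4.12 and -3.57 without BMCP 29, 44 and 62. Of 34 listed genes within 2-fold, 19 turned, 15 of them scaled to spike-in reads, and among the 40 these were Rfc2 (-0.16 scaled to spike-in reads) and Rpa1 (0.31 against GMP with Gata2 under 100 CPM). The cause of these changes was not tested. The stricter filter left 5 GMP, and it set limits on mitochondrial share and on depth together. The setting without 3 cells was chosen after seeing the data. No paired analysis was possible because replicate numbers only number the cells and the results come from no test.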
